A study of Mus musculus with 24 samples.

Results

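Erythroid genes are the genes that nucleated red cell precursors of the marrow switch on as they mature. The 29 genes described here were taken by name from the annotation carried in the array files, older symbols included, and they are 29 of the 28106 named genes on the arrays. For each gene the brightest of its probes was used, and all 29 were measured: the sample signal was well above background on 24 of 24 arrays for each of them. The genes comprise 6 transcription factors (Klf1, Gata1, Nfe2, Tal1, Gfi1b, Zfpm1), the erythropoietin receptor Epor, the globins Hba-a1 and Hbb-b1 with the chaperone Ahsp, and 4 further genes of the red cell interior (Car1, Car2, Bpgm, Hemgn). The other members are 6 genes of the membrane skeleton (Ank1, Epb42, Sptb, Epb41, Add2, Tmod1), 7 of membrane transport and blood groups (Slc4a1, Rhag, Rhd, Kel, Ermap, Icam4, Aqp1) and 2 late genes (Trim10, Tspan33).

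The study compared bone marrow RNA of female C57BL/6j mice, 6 weeks old, on 24 Agilent arrays with 2 colours. The mice had received olive oil or a ligand of the aryl hydrocarbon receptor by intraperitoneal injection, at 50 mg/kg per the labels. The ligands were the dioxin TCDD and a pair of polycyclic hydrocarbons, benzo(a)pyrene (BP) and dimethylbenz(a)anthracene (DMBA). Wild-type (WT) mice were sampled after oil (3 arrays), 6 h after BP (2), 12 h after DMBA (3) and 12 h after TCDD (3). Mice labelled Cyp1b1-null were sampled after oil (2) and 12 h after DMBA (2), mice labelled Cyp1a1-null after oil (3) and 12 h after BP (3), and double-null mice, labelled as lacking both genes, after oil (1) and 12 h after BP (2). Cyp1b1 and Cyp1a1 encode cytochrome P450 enzymes that oxidise BP and DMBA. Every sample was a pool of 9, which the labels do not describe further, so p-values measure only the spread between these pools, and that spread may be technical. On every array the sample carried Cy3, and Cy5 marked a common reference pooled from oil-treated WT marrow. A level is given as a log ratio, log2(Cy3/Cy5), after background correction and loess within each array, so 0 means as bright as the reference.

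Erythropoietin, a hormone of the kidney, acts through its receptor EPOR on committed precursors and keeps them alive while they divide. GATA1 binds DNA beside the cofactor FOG1 (Zfpm1) and the factors TAL1 and KLF1, and switches on globin, membrane and heme genes, while GFI1B represses genes of other fates. The maturing cell fills with hemoglobin and lays a skeleton of spectrin under its membrane, which ankyrin and the proteins 4.1 and 4.2 tie to band 3 (Slc4a1) and the Rh complex.

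GATA1 and KLF1 recognise short motifs, and the promoters of 4 members that stand for different steps of the lineage are shown with every match to those motifs in capitals: Klf1 and Gata1 as regulators, Epor as the receptor and Hba-a1 as a globin. Each sequence holds the 250 bases before the start of transcription in RefSeq (GRCm38.p6), read 5′ to 3′ on the strand of the gene. Klf1 is at chr8:84901732-84901981 (plus strand), Gata1 at chrX:7967911-7968160 (minus), Epor at chr9:21963577-21963826 (minus) and Hba-a1 at chr11:32283422-32283671 (plus).
Klf1: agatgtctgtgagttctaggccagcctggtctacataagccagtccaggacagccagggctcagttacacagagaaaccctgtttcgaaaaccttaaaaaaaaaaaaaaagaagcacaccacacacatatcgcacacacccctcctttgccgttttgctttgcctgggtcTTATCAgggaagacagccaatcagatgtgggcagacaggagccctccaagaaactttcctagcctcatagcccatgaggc
Gata1: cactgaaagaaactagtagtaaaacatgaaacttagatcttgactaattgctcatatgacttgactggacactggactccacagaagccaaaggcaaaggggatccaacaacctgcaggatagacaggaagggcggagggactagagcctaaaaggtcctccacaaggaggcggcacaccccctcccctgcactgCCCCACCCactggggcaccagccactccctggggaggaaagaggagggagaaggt
Epor: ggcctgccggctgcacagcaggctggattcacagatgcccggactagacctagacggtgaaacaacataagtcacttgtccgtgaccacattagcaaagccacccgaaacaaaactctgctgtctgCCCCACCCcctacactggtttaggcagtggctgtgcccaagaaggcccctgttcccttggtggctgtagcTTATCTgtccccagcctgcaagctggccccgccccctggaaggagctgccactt
Hba-a1: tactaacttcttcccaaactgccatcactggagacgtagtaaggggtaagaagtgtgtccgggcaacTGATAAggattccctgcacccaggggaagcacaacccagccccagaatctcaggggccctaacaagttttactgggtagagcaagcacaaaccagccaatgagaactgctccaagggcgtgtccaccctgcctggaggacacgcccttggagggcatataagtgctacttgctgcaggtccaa
The letters searched for GATA, on both strands, were AGATAA (held by 9.99% of all promoters of the table), TGATAA (7.94%), AGATAG (7.71%) and TGATAG (6.35%). Those for the CACCC box were CCACACCC (held by 3.2%), CCGCACCC (1.53%), CCACGCCC (4.79%) and CCCCACCC (9.05%). TTATCA and, in Epor, TTATCT are the GATA motif read on the other strand. The GATA match of Klf1 began 80 bases before the start, that of Epor 54 bases and that of Hba-a1 183 bases. CACCC matches lay 55 bases before the start of Gata1 and 124 bases before that of Epor. Of the 22 members with a promoter entry, 15 (68.2%) held a GATA match, 5 (22.7%) a CACCC match and 2 (9.09%, Epor and Icam4) both. Over all 32851 promoters of the table the shares were 26.5%, 16.9% and 3.02%. These matches are a description of letters, not of binding.

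Between 38.3% (WT TCDD replicate 1) and 84.8% (WT oil replicate 2) of all probes had a Cy3 signal well above background on an array, and the arrays were spread over 10 slides. Cyp1a1 was well above background on 0 of 9 arrays of mice labelled as lacking it and on 10 of 15 others. Cyp1b1 was well above background on 7 of 7 arrays of mice labelled as lacking it, at log ratios from 0.06 to 1.57, and on 12 of 17 others, at -0.28 to 0.90. Its probe was thus no lower in those mice, and where it lies relative to the deletion is not stated, so it does not check the label, and Cyp1b1-null below stands for what the label says.

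WT oil replicate 1 stood apart from the other arrays, for these genes and for others: its log ratios had an SD over all genes of 1.26, against 0.198 to 0.665 elsewhere. All 29 members were higher there than on any other array, from 1.04 (Car1) to 6.00 (Hemgn), with a median of 3.16, whereas the medians of the other 23 arrays lay between -0.39 and 0.29. The reference channel differed: the members' median log2 Cy5 signal was 7.67 on that array and 11.82 to 14.62 on the others, and their median percentile among all genes in Cy5 was 67.8 against 96.3 to 97.6. In the sample channel the median percentile was 94.0, against 94.7 to 97.7 elsewhere. Other lists moved in the same channel, such as 14 neutrophil genes, at percentile 81.6 in Cy5 against 99.2 to 99.8, and 15 B lineage genes, at 64.3 against 89.5 to 92.8. A list of 17 measured liver genes lay at percentile 99.8 in the Cy5 and 95.4 in the Cy3 of that array, and at 12.5 to 30.2 in either channel of the others. The reference channel of this array thus read unlike that of the others, and so did its sample channel for the liver genes. Every comparison was fitted with all 24 arrays and again without this array, called the reduced fit below.

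**Figure D1:**
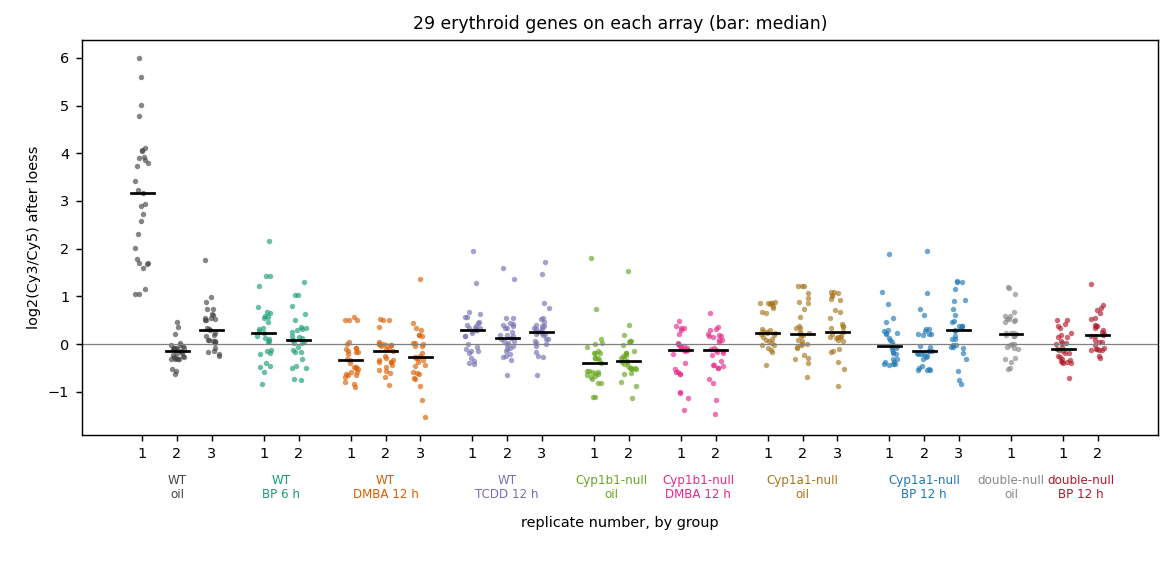
Log ratio, log2(Cy3/Cy5) after loess, of each of the 29 erythroid genes (points) on each of the 24 arrays, ordered by group and replicate, with the median of the genes as a bar. WT oil replicate 1 has a median of 3.16, and the medians of the other 23 arrays lie between -0.39 and 0.29.

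Saturation limited what could be said of the most abundant transcripts. A spot at the ceiling of the scanner gives only a bound, and 11 of the 29 members had a saturated spot on at least 1 array. The Cy5 spots of Hba-a1 and Hbb-b1, the globin chains of adult hemoglobin, were saturated on 23 of 24 arrays, all but WT oil replicate 1. Their Cy3 spots were saturated on 13 and 15 arrays. Where both channels were at the ceiling the log ratios of the globins were nearly equal, for example -0.31 for both on WT oil replicate 2, 1.43 and 1.42 on WT BP replicate 1, and -0.53 and -0.51 on double-null oil, so these ratios carry no level. Cy5 was also saturated for Car2, a carbonic anhydrase, on 16 arrays, Slc4a1 on 12, Tspan33 on 10 and Ahsp on 9, and on all 4 arrays of slide 9 for 10 members. The 3 double-null arrays had the Cy3 of 8 members saturated on each.

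**Figure D2:**
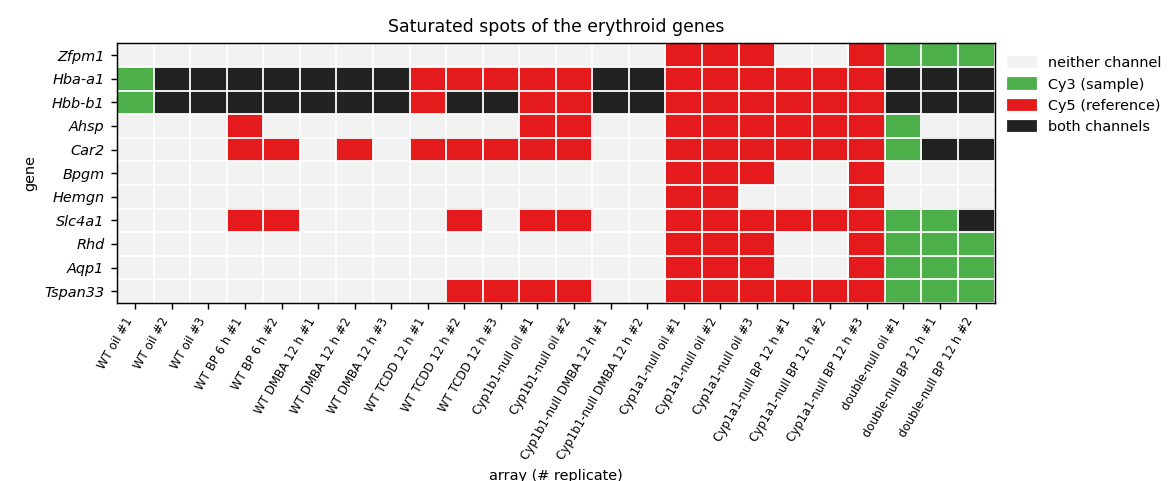
Saturated spots of the 11 erythroid genes that had any, by array (columns) and gene (rows): none, the sample channel (Cy3), the reference channel (Cy5) or both. The globins are saturated in Cy5 on 23 of 24 arrays, and the double-null arrays stand out by saturation of Cy3.

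A gene was called where its difference in a linear model across all arrays (limma) had a Benjamini-Hochberg adjusted p under 0.05 over the 24491 genes tested, all 29 members among them. With all 24 arrays 7 members were called in some comparison, and in the reduced fit 25. Tal1, Ahsp, Ank1 and Tmod1 were called in none. Over the 23 arrays without WT oil replicate 1, Klf1 ranged from -1.12 (Cyp1b1-null oil replicate 1) to 0.29 (Cyp1a1-null oil replicate 1) with a median of -0.29. Gata1 ranged from -0.74 (WT DMBA replicate 3) to 0.34 with a median of -0.09. Epor ranged from -0.38 (WT DMBA replicate 3) to 1.06 (double-null oil) with a median of 0.18. In bulk marrow, fewer cells of a type and less RNA per cell cannot be told apart.

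**Figure D3:**
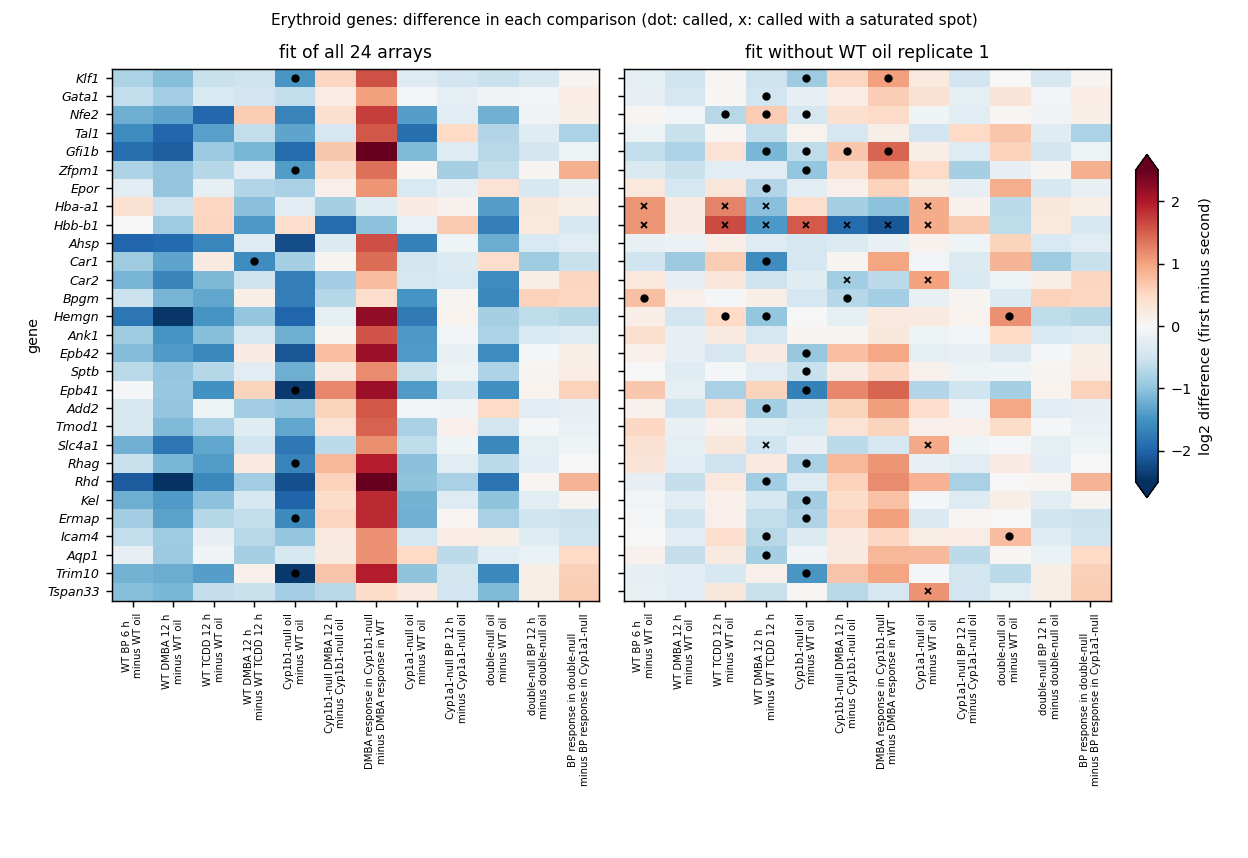
Log2 difference of each erythroid gene (rows) in each of the 12 comparisons (columns), fitted with all 24 arrays (left) and without WT oil replicate 1 (right). A dot marks a called difference and an x a called difference with a saturated spot in the groups compared. With all arrays nearly every difference from WT oil is negative, and without WT oil replicate 1 the calls gather in the comparison of DMBA with TCDD and in that of Cyp1b1-null with WT after oil.

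DMBA and TCDD were compared at 12 h in WT marrow, and their difference uses no WT oil array. The comparison asks how a ligand that CYP1 enzymes oxidise differs from one that resists them. Of all arrays, WT TCDD replicate 1 had the lowest median rank correlation (Spearman) in Cy3, 0.769, against 0.876 to 0.955 elsewhere. Cyp1a1 read 0.18 and 0.15 on TCDD replicates 1 and 2, 1.55 on replicate 3 and 1.76 to 1.93 on the DMBA arrays. Erythroid genes lay lower after DMBA: 23 of 29 differences were negative, with a median of -0.52 against 0.01 for all genes tested. The reduced fit called 12 members lower and 1 higher, where 6.25% of all genes tested were called in either direction. With all 24 arrays, where WT oil replicate 1 enters the shared estimate of spread, 1 member was called, Car1, against 0.645% of all genes. Leaving out the members with a saturated spot in these groups, the reduced fit called 9 of 24 lower and 1 higher. The arrays of the 2 treatments did not overlap for any of these 10. These genes were picked by p on the same arrays, so this is no separate result. Its share over all genes was not counted. The 20 dimmer probes of 9 members gave a weaker picture: 14 of 20 differences were negative, with a median of -0.09, and none was called. With Cy3 alone, scaled to its 75th percentile on each array, the median of all genes shifted by -1.26 and that of the members was 0.21, so the members' direction turned, in sign and relative to all genes. Of the 10 unsaturated genes 8 kept their sign there (Rhd and Aqp1 turned) and 1, Nfe2, kept it relative to the median of all genes.

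Among the regulators, Gfi1b, a zinc finger repressor needed for erythroid maturation, read -0.68, -0.60 and -1.18 on the DMBA arrays and 0.47, 0.10 and 0.40 on the TCDD arrays. All DMBA arrays were below all TCDD arrays, a difference of -1.14 ± 0.15 (standard error, as throughout; adjusted p = 0.000658 in the reduced fit). Gata1 read -0.48, -0.38 and -0.74 after DMBA and -0.06, -0.21 and 0.10 after TCDD. Its difference was smaller, -0.48 ± 0.13 (adjusted p = 0.0404). Nfe2, whose product p45 serves globin and platelet genes, went the other way at 0.05, -0.02 and 0.18 after DMBA and -0.40, -0.64 and -0.65 after TCDD, a difference of 0.63 ± 0.12 (adjusted p = 0.00537). Klf1, an activator of adult globin genes, read -0.65, -0.49 and -0.71 after DMBA and 0.00, -0.24 and -0.04 after TCDD. Its arrays did not overlap either, but its difference of -0.52 ± 0.15 just missed the threshold (adjusted p = 0.05).

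The receptor gene Epor read -0.33, -0.15 and -0.38 after DMBA and 0.56, -0.05 and 0.85 after TCDD, a difference of -0.74 ± 0.18 (adjusted p = 0.021). The TCDD arrays were spread, with replicate 2 close to the DMBA arrays. Car1, a carbonic anhydrase of red cell precursors, showed the largest difference of the called members, with -0.90, -0.85 and -1.52 after DMBA and 0.17, 0.43 and 0.77 after TCDD. The difference was -1.55 ± 0.19 (adjusted p = 0.000435), or adjusted p = 0.0221 with all 24 arrays. Hemgn, a nuclear protein of erythroid precursors, read -0.62, -0.32 and -0.28 after DMBA and 0.67, 0.43 and 0.55 after TCDD, a difference of -0.96 ± 0.11 (adjusted p = 0.000364). Its other 2 probes gave smaller differences that were not called, -0.42 and -0.18.

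Of the membrane skeleton, Add2 was lower after DMBA. Add2, the beta subunit of adducin, which caps the actin filaments of the skeleton, read -0.58, -0.34 and 0.03 after DMBA and 0.64, 0.56 and 0.52 after TCDD, a difference of -0.87 ± 0.20 (adjusted p = 0.015). Its other 3 probes gave -0.35, -0.43 and -0.06, none of them called. The TCDD arrays agreed closely among themselves while the DMBA arrays spread.

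The rest of the called members were 4 membrane proteins and the globins, whose spots were saturated. Icam4, the adhesion molecule of the Landsteiner-Wiener blood group, read -0.49, -0.25 and -0.63 after DMBA and 0.30, 0.06 and 0.33 after TCDD, a difference of -0.69 ± 0.15 (adjusted p = 0.01). Rhd, the Rh antigen, differed by -0.86 ± 0.24 (adjusted p = 0.0401), and Aqp1, the water channel of the red cell, by -0.82 ± 0.24 (adjusted p = 0.047, or 0.0535 with the scanner's processed signals). Slc4a1, the anion exchanger band 3, read -0.09, -0.02 and -0.44 after DMBA and 0.37, 0.38 and 0.22 after TCDD, a difference of -0.51 ± 0.14 (adjusted p = 0.0472), with the reference spot of 1 TCDD array saturated.

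**Figure D4:**
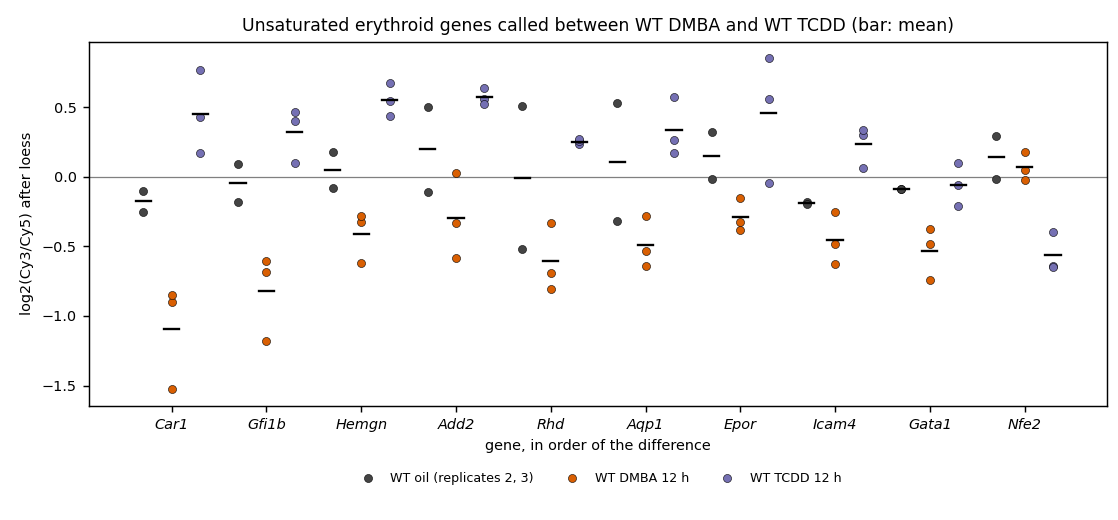
Log ratio, log2(Cy3/Cy5) after loess, of the 10 erythroid genes with no saturated spot that were called between WT DMBA and WT TCDD, on each array of WT oil (replicates 2 and 3), WT DMBA and WT TCDD, with group means as bars. For all but Nfe2 the DMBA arrays lie below the TCDD arrays, with differences from -1.55 in Car1 to -0.48 in Gata1.

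Heme genes lay lower too. Of 16 genes of heme synthesis and iron uptake, 8 were lower and 0 higher in the reduced fit, led by Hebp1, Alad and Slc11a2. Of 27 other terminal erythroid genes 5 were lower and 0 higher (Hba-a2, Ctse and Tfr2 with the smallest p). None of 12 genes of Epo receptor signalling was called, with 3 at an unadjusted p under 0.05. Among 15 partners of GATA1 and early regulators Cbfa2t3 was higher, at 1.13, and Sox6 lower, at -0.72. Of the lists for other cells, 2 of 14 megakaryocyte genes (Ppbp and Gp1ba), 1 of 15 B lineage genes (Vpreb3) and 1 of 15 macrophage genes (Adgre1) were higher and 0 of 14 neutrophil genes were called, 7 of them at an unadjusted p under 0.05. Of 18 genes of S phase and mitosis 2 were higher and 1 lower. Their part in the erythroid difference was not tested.

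The 3 TCDD arrays were alone on slide 6, and the DMBA arrays were on slides 2 and 5. With slide as a random block no member was called in either fit, and in the reduced fit all 10 unsaturated members kept their sign at adjusted p from 0.128 to 0.547.

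Against WT oil, DMBA and TCDD share their oil arrays, and oil replicates 2 and 3 differed from each other, with medians over the members of -0.15 and 0.29. After DMBA all 29 differences were negative with all 24 arrays (median -1.15) and 26 of 29 in the reduced fit (median -0.27, against 0.02 for all genes). None was called in either fit by limma: 24 and 11 members had an unadjusted p under 0.05, and 0% and 0.098% of all genes were called. Car1 read -0.10 and -0.25 on oil replicates 2 and 3, above all 3 DMBA arrays, with a difference of -0.92 ± 0.21 (adjusted p = 0.125). Klf1 read -0.28 and 0.05 there, also above all 3, with a difference of -0.50 ± 0.17 (adjusted p = 0.327). On slide 2, which held oil replicate 2 and DMBA replicates 1 and 2, the median over the members was -0.10, with 18 of 29 negative.

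After TCDD the median was -0.92 with all arrays, with no member called, 6 at an unadjusted p under 0.05 and 2.12% of all genes called. Without WT oil replicate 1 it was 0.16, with 3 members higher, 1 lower and 6.12% of all genes called. Hemgn rose from -0.08 and 0.18 on the oil arrays to 0.67, 0.43 and 0.55, by 0.50 ± 0.13 (adjusted p = 0.0329). With Cy3 alone its difference was -0.22 instead, and its other 2 probes gave 0.01 and -0.24, not called. Nfe2 fell by 0.70 ± 0.14 on the log2 scale (adjusted p = 0.011) from -0.02 and 0.29. The other 2 calls were the globins, with every spot of the reference saturated in that fit. The TCDD arrays were alone on slide 6, and with slide as a random block neither call remained (adjusted p = 0.31 for Nfe2 and 0.38 for Hemgn). With processed signals Hemgn also missed the threshold (adjusted p = 0.0593). Among lists for other cells, 2 of 14 megakaryocyte genes (Ppbp and Treml1) and 2 of 15 B lineage genes (Vpreb3 and Fcrla) were lower and 1 of 15 macrophage genes (C1qb) was higher, and their part in the result was not tested.

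At 6 h after BP the median was -0.86 with all arrays, with no member called, 5 at an unadjusted p under 0.05 and 0.735% of all genes called. In the reduced fit it was 0.04, with 3 members higher and 3.87% of all genes called. Bpgm, the enzyme that makes bisphosphoglycerate and so lowers the oxygen affinity of hemoglobin, read 1.22 and 0.80 after BP and 0.47 and 0.06 after oil. The rise was 0.75 ± 0.18 (adjusted p = 0.026), and Bpgm's second probe gave 0.59, not called. Both BP arrays were on slide 4, with no other group, and the call was lost with slide as a random block (adjusted p = 0.443) and with processed signals (adjusted p = 0.217). The other 2 calls were the globins, saturated on all arrays of both groups. Among other genes, Alas2, the first enzyme of heme synthesis in red cells, rose by 0.85, and 2 of 14 megakaryocyte genes fell (Ppbp and Treml1) while 2 of 14 neutrophil genes rose (Chil3 and S100a9). The part of those cells in the Bpgm result was not tested.

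In oil-treated marrow, mice labelled Cyp1b1-null were compared with WT mice for the effect of the missing enzyme without a ligand. With all 24 arrays 28 of 29 differences were negative (median -1.45) and 6 members were lower, none higher, where 15.4% of all genes tested were called. The reduced fit called 11 lower and 1, the saturated Hbb-b1, higher, where 29.6% of all genes were called. The share of members called, 20.7% and 41.4%, thus stood on a high background, with 12.3% of all genes lower in the reduced fit against 37.9% of members. Among the 23 members with no saturated spot in these groups, 21 differences were negative and 11 were called, all lower. For those 11 the arrays did not overlap with oil replicates 2 and 3. Being called on the same arrays makes that likely, and its share over all genes was not counted. With Cy3 alone in the reduced fit all 11 stayed lower and 2 were called. Since the Cyp1b1 probe does not check the label, the direction rests on the label.

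Klf1 read -1.12 and -0.88 on the Cyp1b1-null oil arrays and 1.60, -0.28 and 0.05 on the WT oil arrays. The Cyp1b1-null arrays were below all 3, a difference of -1.45 ± 0.36 with all arrays (adjusted p = 0.0157) and of -0.88 ± 0.19 in the reduced fit (adjusted p = 0.00319). With Cy3 alone and all arrays the difference of Klf1 turned to 0.13, with the median of all genes at 0.205. Zfpm1, the GATA1 cofactor FOG1, read -0.59 and -0.53 against 1.70, 0.22 and 0.62, a difference of -1.40 ± 0.36, or -0.98 ± 0.29 in the reduced fit (adjusted p = 0.0175 and 0.0182). Gfi1b read -0.74 and -0.63 against -0.18 and 0.09 on oil replicates 2 and 3 and differed by -0.63 ± 0.19 (adjusted p = 0.0185, or 0.165 with processed signals). Nfe2 differed least, at -0.18 and -0.37 against -0.02 and 0.29 (-0.42 ± 0.15, adjusted p = 0.0445). Gata1, at -0.34 and -0.24 against -0.09 and -0.09, and Epor, at -0.28 and 0.05 against -0.02 and 0.32, were not called.

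The membrane skeleton held the largest fall. Epb41, protein 4.1, which joins spectrin to actin, read -0.65 and -0.62 against 0.37 and 1.76 on oil replicates 2 and 3. It differed by -1.70 ± 0.39 in the reduced fit (adjusted p = 0.00469), or -2.40 ± 0.53 with all arrays, but the oil arrays themselves were far apart and its other 4 probes gave only -0.34 to -0.01. Epb42, protein 4.2, read -0.70 and -0.51 against -0.30 and 0.98 (-0.94 ± 0.31, adjusted p = 0.0285). Sptb, the beta chain of erythroid spectrin, differed by -0.56 ± 0.20 (adjusted p = 0.0423, or 0.082 with processed signals).

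Ank1, the ankyrin that links spectrin to band 3, and Tmod1, which caps actin, were not called at their brightest probes (0.08 and -0.38). Dimmer probes of both were lower: -1.44, -1.02 and -0.56 for 3 of Ank1's other 4 probes and -1.62 for Tmod1's other probe. Of 20 further probes of the members other than Hbb-b1, 10 were called, all lower, from 7 genes (Ank1, Tmod1, Add2, Bpgm, Hemgn, Tspan33 and Epb41). The brightest probe and the others thus disagreed on which genes passed, while 19 of the 20 differences were negative.

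Among membrane proteins, Kel, the Kell antigen, read -0.59 and -0.51 against -0.11 and 0.73 on oil replicates 2 and 3 (-0.86 ± 0.23, adjusted p = 0.0109). Rhag, which carries the Rh complex to the membrane, read -0.61 and -0.35 against -0.24 and 0.88, a difference of -0.80 ± 0.27, or -1.67 ± 0.54 with all arrays (adjusted p = 0.0316 and 0.0463). Ermap, the Scianna blood group protein, differed by -0.76 ± 0.26 (adjusted p = 0.0335). Trim10, a protein of terminal maturation, read -1.11 and -1.13 against 0.03 and 0.64 and had the smallest p of the members without saturated spots, with a difference of -1.45 ± 0.25 (adjusted p = 0.00121). For these genes the oil arrays were again spread more widely than the Cyp1b1-null arrays.

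**Figure D5:**
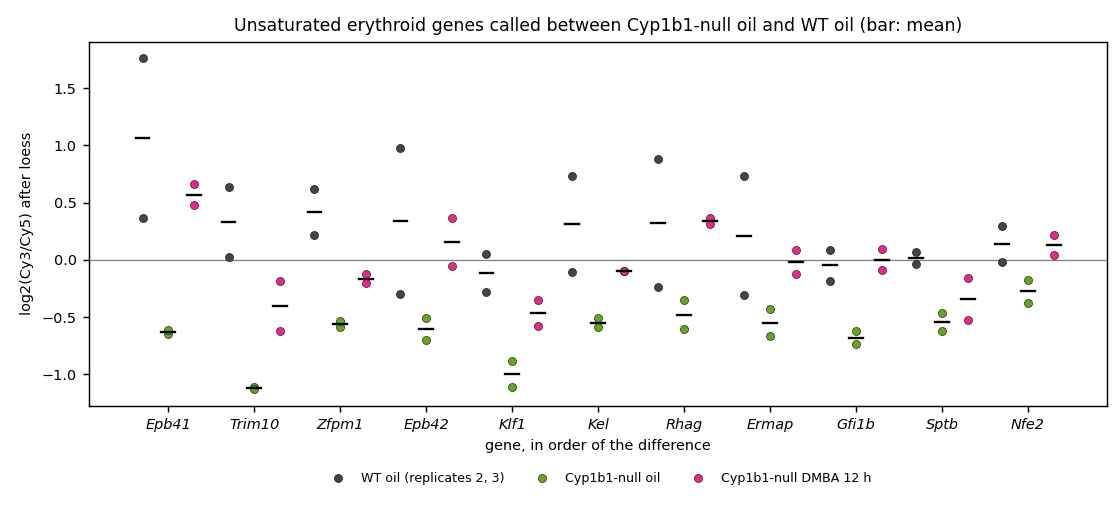
Log ratio, log2(Cy3/Cy5) after loess, of the 11 erythroid genes with no saturated spot that were called between Cyp1b1-null oil and WT oil in the fit without WT oil replicate 1, on each array of WT oil (replicates 2 and 3), Cyp1b1-null oil and Cyp1b1-null DMBA, with group means as bars. The Cyp1b1-null oil arrays lie below the WT oil arrays in all 11, with differences from -1.70 in Epb41 to -0.42 in Nfe2.

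Other erythroid lists fell in part as well: in the reduced fit 7 of 16 heme and iron genes were lower and 1 higher (Uros, Ppox and Blvrb with the smallest p), and 8 of 27 other terminal genes were lower and 1 higher (Gclm, Ctse and Tspo2). Of 12 genes of Epo receptor signalling 5 were lower and 1 higher, among them Cish at -0.92 and Erfe at -1.10, both targets of the receptor, and Socs3 at 0.80. Of 15 partners of GATA1 5 were lower and 3 higher, with Cbfa2t3 and Lyl1 lower and Fli1 higher. Lists for other cells moved at the same time. Of 14 neutrophil genes 5 were higher and 1 lower (Chil3, S100a9 and Ctsg higher), of 15 B lineage genes 7 were lower and 2 higher (Fcrla, Vpreb3 and Ebf1 lower), of 15 macrophage genes 6 were higher (C1qb, Adgre1 and Vcam1), and of 18 genes of S phase and mitosis 5 were lower and 1 higher. Their part in the erythroid result was not tested.

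The Cyp1b1-null oil arrays shared slide 7 with 2 arrays of another genotype, Cyp1a1-null BP replicates 1 and 2, on which Klf1 read -0.41 and -0.55, Trim10 -0.37 and -0.52, and Zfpm1 -0.43 and -0.31. With slide as a random block no member was called with all arrays, and 3 were in the reduced fit (1 higher, 2 lower: Epb41 at -1.52 and Trim10 at -1.19).

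DMBA in mice labelled Cyp1b1-null addressed whether the response needs that enzyme. With all arrays no member was called, 1 had an unadjusted p under 0.05, and 0.0245% of all genes were called. The reduced fit called 1 higher and 3 lower, where 7.46% of all genes were called, against 13.8% of the members. The median was 0.23, with 20 of 29 positive. Of 20 dimmer probes of 9 members 15 differences were positive (median 0.24), with 3 called higher, from 3 genes, and 0 lower. Gfi1b rose from -0.74 and -0.63 after oil to -0.09 and 0.09 after DMBA, by 0.68 ± 0.19 (adjusted p = 0.0373). Bpgm, at -0.19 and -0.15 after oil and -1.03 and -0.74 after DMBA, fell by 0.72 ± 0.18 on the log2 scale (adjusted p = 0.022). Its second probe was not called lower. With Cy3 alone both signs turned, to -0.22 for Gfi1b and 0.26 for Bpgm. With processed signals neither was called, at 0.58 for Gfi1b (adjusted p = 0.108) and -0.28 for Bpgm (adjusted p = 0.407). The other 2 calls, Car2 and Hbb-b1, had saturated reference spots. Of 14 neutrophil genes 1 was higher and 2 lower, and of 15 macrophage genes 1 was lower (C1qb), whose part in the result was not tested. Slc4a1 had no value on Cyp1b1-null DMBA replicate 1, where its spot was marked as an outlier. The oil arrays were on slide 7 and the DMBA arrays on slide 8, and with slide as a random block no call at a member's brightest probe remained.

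The difference between the DMBA responses of mice labelled Cyp1b1-null and WT mice was tested directly. With all arrays it was positive for 27 of 29 members (median 1.55), none called, with 13 at an unadjusted p under 0.05 and 0.00817% of all genes called. In the reduced fit the median was 0.57, and 2 members had a higher and 1 a lower response in the Cyp1b1-null mice, where 3.05% of all genes were called. The 20 dimmer probes of 9 members gave 16 positive and 4 negative differences (median 0.57), with 4 called higher, from 3 genes, and 0 lower. Klf1 differed by 1.03 ± 0.25 (adjusted p = 0.0398): its DMBA arrays lay below oil replicates 2 and 3 in WT mice and above the oil arrays in the Cyp1b1-null mice. Gfi1b differed by 1.46 ± 0.25 (adjusted p = 0.0105), with WT arrays at -0.18 and 0.09 after oil and -0.68, -0.60 and -1.18 after DMBA. The third call, Hbb-b1, rested on saturated spots. With Cy3 alone the differences were 0.16 for Klf1 and 0.28 for Gfi1b, below the median of all genes (0.75), and the slide block ended both calls. Processed signals ended that of Klf1 (adjusted p = 0.0978).

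In oil-treated Cyp1a1-null marrow the median difference from WT was -0.80 with all arrays, with no member called, 8 at an unadjusted p under 0.05 and 3.58% of all genes called. In the reduced fit it was 0.15, with 5 members higher and 7.58% of all genes called. All 5 (Hba-a1, Hbb-b1, Car2, Slc4a1 and Tspan33) had a saturated reference spot on each of the 3 Cyp1a1-null arrays, so their log ratios can overstate the level. Car2 read 0.85, 0.73 and 0.72 against -0.56 and 0.09 on oil replicates 2 and 3. Slc4a1 read 0.87, 1.07 and 1.03 against -0.09 and 0.17. Tspan33, a tetraspanin of late erythroid cells, read 0.87, 1.21 and 1.09 against -0.15 and 0.03. Its second probe, which had no saturated spot, was not called higher. Of 20 dimmer probes of 9 members 15 differences were positive (median 0.14, highest 0.55), with 0 called higher and 1 lower. For Car2, Slc4a1 and Tspan33 the Cyp1a1-null arrays did not overlap with oil replicates 2 and 3, which being called makes likely. The share of all genes without overlap was not counted. Of the 18 members free of saturation in these groups, limma called none, with 1 (Gata1, at 0.37) at an unadjusted p under 0.05 and a median of -0.05.

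BP for 12 h in Cyp1a1-null marrow gave no called member in either fit (2 and 11 at an unadjusted p under 0.05), where 0.0327% and 0.155% of all genes were called. The BP arrays divided by slide. Replicate 3, on slide 9 with the 3 oil arrays, differed from them by a median of -0.03, with 16 of 29 members below 0. Replicates 1 and 2, on slide 7, differed from the same oil arrays by a median of -0.29, with 20 below 0: Zfpm1 by -1.26 against 0.03 for replicate 3, Rhd by -1.08 against -0.24, Aqp1 by -0.99 against 0.01, and Trim10 by -0.73 against 0.09. Zfpm1, Rhd and Aqp1 had saturated reference spots on slide 9, and Trim10 had none.

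The double-null oil group had 1 array, so its spread was taken from the other groups. The median difference from WT oil was -0.82 with all arrays, with no member called, 3 at an unadjusted p under 0.05 and 1.57% of all genes called. In the reduced fit it was 0.05, with 2 members higher and 6.11% of all genes called, near the share of members (6.90%). Hemgn was at 1.20, above every other array but WT oil replicate 1, and differed by 1.15 ± 0.17 (adjusted p = 0.00168). Icam4, at 0.59 against -0.18 and -0.20, differed by 0.78 ± 0.22 (adjusted p = 0.0458). The array was on slide 10, apart from the WT oil arrays, and with slide as a random block Hemgn stayed called (adjusted p = 0.0376) and Icam4 did not (adjusted p = 0.189). Icam4 was not called with processed signals either (adjusted p = 0.119). The other probes of Hemgn gave 0.27 and 0.45, not called, and 7 of 15 B lineage genes were lower on this array.

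BP for 12 h in double-null marrow gave no called member in either fit (1 and 3 at an unadjusted p under 0.05), with 0.282% and 0.519% of all genes called and a median of -0.16. Klf1 read -0.11 after oil and -0.72 and -0.29 after BP, and Epor 1.06 after oil and 0.51 and 0.81 after BP. The BP response of double-null mice differed from that of Cyp1a1-null mice in no member (0 and 2 at an unadjusted p under 0.05), with 0.135% and 0.204% of all genes called.

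The globin genes had no usable ratio between groups, since the reference was at its ceiling on every array but WT oil replicate 1. On the arrays where only the reference was saturated, the true ratio lay at or below the given one before normalization. Hba-a1, an alpha-globin gene, was in that state at 1.29, 1.36 and 1.47 on the TCDD arrays, 0.74 and 0.41 on the Cyp1b1-null oil arrays, 0.87, 1.21 and 1.09 on the Cyp1a1-null oil arrays and 1.09, 1.07 and 1.33 on the Cyp1a1-null BP arrays. On the Cyp1a1-null oil arrays its Cy3 spots carried no saturation flag, although their log2 signals of 15.99, 16.00 and 15.98 were as high as those of flagged spots elsewhere. Both its channels were saturated on the remaining arrays apart from WT oil replicate 1, at -0.31 and 0.55 on WT oil replicates 2 and 3, 1.43 and 1.04 after BP, 0.51, 0.51 and -0.03 after DMBA in WT mice, -0.01 and -0.49 after DMBA in Cyp1b1-null mice, -0.53 on double-null oil and -0.38 and -0.12 on double-null BP. Its order across groups thus describes the ceiling and the normalization as well as the sample. Hbb-b1, a beta-globin gene, read 1.96, 1.60 and 1.71 on the TCDD arrays, 1.80 and 1.53 on the Cyp1b1-null oil arrays and 1.89, 1.95 and 1.31 on the Cyp1a1-null BP arrays. Where both channels of both genes were saturated, its readings lay close to those of Hba-a1. No fold is given for either globin: Cy3 levels could not stand in, since the members' median log2 Cy3 itself ranged widely between arrays, for example 12.88 on WT oil replicate 2 and 14.33 on double-null oil.

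Ahsp, which binds free alpha-globin until it meets its partner chain, read -0.62 and -0.16 on WT oil replicates 2 and 3, -0.40 and -0.76 after BP, -0.59, -0.43 and -0.61 after DMBA and -0.41, -0.27 and 0.00 after TCDD. The WT oil arrays overlapped with each treated WT group, but all DMBA arrays lay below all TCDD arrays. In mice labelled Cyp1b1-null it read -0.82 and -0.80 after oil and -1.14 and -1.17 after DMBA, the lowest of all arrays. In Cyp1a1-null mice it read -0.03, -0.30 and -0.52 after oil and -0.42, -0.21 and -0.56 after BP, and in double-null mice 0.17 after oil and -0.27 and -0.13 after BP. None of these differences was called, and its reference spot was saturated on 9 arrays. Hba-a1 and Hba-a2 are near-identical, and the probes named Hbb-b1 carry the accession of a gene now named Hbb-bt, so neither globin can be tied to 1 locus.

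The other 7 members are given by their range over the 23 arrays. Tal1, a partner of GATA1, ranged from -0.87 (Cyp1a1-null oil replicate 3) to 0.52, Ank1 from -0.31 to 0.67 (WT BP replicate 1) and Tmod1 from -0.29 to 0.78 (WT BP replicate 1). Rhd ranged from -0.80 (WT DMBA replicate 1) to 0.93, Aqp1 from -0.64 (WT DMBA replicate 1) to 1.01, Ermap from -0.67 (Cyp1b1-null oil replicate 1) to 0.73, and Sptb from -0.63 (Cyp1b1-null oil replicate 1) to 0.33. The lowest array was a WT DMBA or a Cyp1b1-null oil array for 6 of these 7 genes. Among them Rhd, Aqp1, Ermap and Sptb had been called lower in those groups, so this is no separate result. The share over all genes was not counted.

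In the authors' deposited table of group differences, the members' median was -0.32 for DMBA against WT oil, with 26 of 29 below 0, and -0.42 for Cyp1b1-null against WT oil, with 25 below 0. For TCDD and BP against WT oil the authors' deposited table gives medians of 0.20 and 0. Its values for Cyp1b1-null against WT oil were -0.92 for Klf1, -1.74 for Epb41 and -1.23 for Trim10 in the authors' deposited table. By its headers these differences used all WT oil arrays, WT oil replicate 1 included. The members' medians in it lay nearer to those of the reduced fit than to those of the fit with all arrays.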

How the data were processed

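Scanner files held intensity values for both channels as deposited. Per the file headers they were extracted with Feature Extraction, version 10.7.3.1 on slide 9 and 9.1.3.1 on the other slides. The authors' deposited table holds log2 group differences. The submitters' processing notes name limma, its version not given in the sources used here. Mean and background signals were corrected by normexp (offset 50) and normalized by loess within arrays in limma 3.58.1 (R 4.3.3). Control spots and outlier flags were left out, spots of a probe averaged, and genes kept whose brightest probe was well above background on at least 3 arrays. One limma model over the 10 groups gave 12 comparisons, with Benjamini-Hochberg adjustment over all genes at 0.05. The number of arrays limits the precision. The fit was tested on simulated data with independent noise on each array and no slide effect. In the real data the correlation within slides was 0.82, or 0.567 without WT oil replicate 1. The simulation thus cannot show whether p-values hold for groups alone on a slide.

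Members, lists and the second fit were chosen with earlier results of these data known. Values by array are given, in the groups where a comparison turns on them, for Klf1, Gata1, Epor, Hba-a1, Hbb-b1, Ahsp and the 20 called members with the smallest adjusted p, and ranges for the others. Same-numbered arrays did not pair: over 82 pairs the correlation of their deviations ran from -0.236 to 0.336, and 21 exceeded 0.1. Alternatives were Cy3 alone, processed signals, array weights, slide as a random block, a replicate block, other filters, backgrounds and probe rules, and leaving out each array. Restricting to members without saturation, and Cy3 alone without WT oil replicate 1, were added after seeing the data.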

Additional observations from a re-analysis of the deposited data

Results flagged for a closer look

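The results for 3 genes differed between groups by a test of the difference itself: the DMBA response of mice labelled Cyp1b1-null minus that of WT mice, in the limma fit without WT oil replicate 1. Of all genes tested, 3.05% were called there. The difference was 1.03 for Klf1 and 1.46 for Gfi1b, both genes without saturated spots. With slide as a random block limma called neither (adjusted p = 0.563 and 0.278), nor with Cy3 alone (adjusted p = 0.779 and 0.721). With processed signals Gfi1b stayed called (adjusted p = 0.0388) and Klf1 did not (adjusted p = 0.0978). For Hbb-b1 the difference was -2.13. Its reference spots were saturated on every array of the fit without WT oil replicate 1, so its ratio is not usable.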

How the results depend on the processing

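Values are counts of the 29 members called by limma, in either direction, unless stated. For the other settings the share of all genes called is not set beside them, so those counts do not compare members with all genes. With all 24 arrays the count was 6 for Cyp1b1-null against WT oil (15.4% of all genes called), 1 for DMBA against TCDD (0.645%) and 0 in the other 10 comparisons. With the replicate number as a replicate block it was 4, 1 and 0. Array weights gave 19 for DMBA against TCDD, 14 for Cyp1b1-null oil, 20 for its DMBA response, 19 for the difference of DMBA responses, 13 for Cyp1a1-null BP, 5 for TCDD, 3 for DMBA, 3 for Cyp1a1-null oil, 1 for double-null oil and 1 for the difference of BP responses. Cy3 alone gave 8 for DMBA against TCDD, 2 for Cyp1b1-null oil, 5 for TCDD, 1 for the difference of DMBA responses and 1 for Cyp1a1-null oil. For DMBA against TCDD the members' median turned in sign with Cy3 alone, so that count does not repeat the direction of the main fit. Slide as a random block gave 0 for DMBA against TCDD and 0 for Cyp1b1-null oil.

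Without WT oil replicate 1, the slide block gave 0 for DMBA against TCDD, 3 for Cyp1b1-null oil, 1 for double-null oil and 1 for double-null BP. Processed signals gave 12 for DMBA against TCDD, 12 for Cyp1b1-null oil and 3 for TCDD. They gave 2 for each of the Cyp1b1-null DMBA response, the difference of DMBA responses and Cyp1a1-null oil, and 1 for each of BP and double-null oil. The scanner software's background method was coded 7 on the DMBA arrays of WT mice and on WT oil replicates 2 and 3. It was coded 5 on the TCDD and the Cyp1b1-null oil arrays. For DMBA against TCDD and for Cyp1b1-null oil this setting cannot be told apart from the groups. Cy3 alone gave 9 for DMBA against TCDD, where the members' median turned in sign, 3 for Cyp1b1-null oil and 7 for TCDD. Members without saturated spots gave 10, 11 and 2 in those 3 comparisons, 1 for BP and 2 for each of the Cyp1b1-null DMBA response, the difference of DMBA responses and double-null oil.

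Leaving out each array gave 0 to 3 for BP, 0 to 15 for DMBA, 0 to 12 for TCDD, 0 to 13 for DMBA against TCDD, 0 to 24 for Cyp1b1-null oil, 0 to 4 for its DMBA response, 0 to 6 for the difference of DMBA responses, 0 to 13 for Cyp1a1-null oil, 0 to 2 for Cyp1a1-null BP, 0 to 5 for double-null oil, and 0 for double-null BP and for the difference of BP responses. The high ends came without WT oil replicate 2 (DMBA, TCDD, the 3 null oil comparisons and the difference of DMBA responses), WT oil replicate 1 (BP, DMBA against TCDD, Cyp1b1-null DMBA) or Cyp1a1-null BP replicate 3. The count was 0 for Cyp1b1-null oil without either of its arrays, and 0 for DMBA against TCDD without DMBA replicate 1 or 3 or TCDD replicate 2 or 3. Log2 differences changed sign without WT oil replicate 1 for Bpgm after BP (-1.28 to 0.75 over the arrays left out), Hemgn after TCDD (-2.54 to 0.50), and, in null against WT oil, Car2 (-1.30 to 1.00) and Slc4a1 (-1.48 to 0.95) in Cyp1a1-null and Hemgn (-1.89 to 1.15) in double-null mice. Against the fit with all arrays, Klf1 in Cyp1b1-null oil turned with Cy3 alone (0.13), Car2 and Slc4a1 with processed signals without replicate 1 (0.95 and 0.89), Slc4a1 with array weights (0.81), and Hemgn in double-null oil with processed signals or the slide block without replicate 1 (0.94 and 1.13). The cause was not tested. Saturation limits the ratios of 11 members, and slide is largely confounded with group.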
